A study of Mus musculus with 18 samples.

Results

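The genes described here encode the machinery of fatty acid beta-oxidation in mouse liver. They were taken by gene symbol from a list of 39 names, and all 39 were found among the 37303 genes of the deposited table with a valid estimate in each of the 6 groups. By the place of the protein, 17 are mitochondrial (Cpt1a, Cpt2, Acadvl, Acadl, Acadm, Acads, Acadsb, Etfa, Etfb, Etfdh, Hadh, Hadha, Hadhb, Acaa2, Decr1, Eci1 and Acot2), 11 are peroxisomal (Acaa1a, Acaa1b, Ehhadh, Hsd17b4, Crot, Decr2, Eci3, Acot3, Acot4, Acot8 and Pex11a), 4 are found in both organelles (Crat, Eci2, Ech1 and Acad11) and 7 act elsewhere or on the pathway from outside (Acsl1, Acsl5, Acot1, Acot12, Fabp1, Vnn1 and Pdk4). The question was how the mitochondrial and the peroxisomal steps behaved when the liver was exposed to asparaginase with and without GCN2 or ATF4. RNA-Seq was performed on liver of 18 mice, 3 per group, on the C57BL/6J background. Intact mice (WT), mice with a homozygous whole-body deletion of Gcn2 (Gcn2-/-) and mice that lacked both copies of Atf4 (Atf4-/-) received 8 daily intraperitoneal injections of asparaginase (ASNase) at 3 IU per gram body weight or the same volume of phosphate buffered saline (PBS), and livers were taken 7.5 h after the last injection. The labels give ages of 8 to 16 weeks on the sample records and at most 12 weeks in the growth protocol. Male mice numbered 1 in each Gcn2-/- group and among WT mice given PBS, and 2 in each Atf4-/- group and among WT mice given ASNase.

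Beta-oxidation shortens an activated fatty acid from its carboxyl end through a repeating cycle of dehydrogenation, hydration, a further dehydrogenation and thiolytic cleavage. Mitochondria handle the bulk of long-, medium- and short-chain fatty acids after entry through the carnitine shuttle, whereas peroxisomes shorten very long and branched chains and dicarboxylic acids. The hepatocyte is rich in both systems, and during fasting the nuclear receptor PPARA, encoded by Ppara, raises transcription of many of their genes. ASNase is an enzyme drug that depletes asparagine and, to a lesser degree, glutamine. GCN2 is a kinase that senses uncharged tRNA and phosphorylates eIF2, and ATF4 is a transcription factor whose synthesis then increases.

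Expression was given as FPKM, the number of sequenced fragments scaled by transcript length and by library depth, with 1 value per group that Cuffdiff had estimated from 3 libraries together, and with the lower and upper bound of its interval. Such a value carries no SD or n, so that p-values were not calculated and differences could not be checked against replicates. The distance from a member's value to its upper bound had a median between 51.0% and 55.0% of the value in the 6 groups. Differences were taken on the log2(FPKM + 0.1) scale, which understates the change of low genes. To be eligible, a gene needed 2 values that were valid and above 0, of which at least 1 was over 3 FPKM. It was called, and is said to have risen or fallen, when in addition the log2 difference was over 1.5 in size and the 2 intervals did not overlap. The 3 members Acadsb, Decr2 and Hadha had a lower bound of 0 in all 6 groups, so no fall could separate their intervals or be called. They remain among the eligible members. Eci3 was never over 3 FPKM and was not eligible in any comparison.

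The tissue label was borne out by 15 hepatocyte markers, of which 13 to 15 had a valid estimate in a group and none of those was listed at 0. The summed level of the valid markers under PBS and ASNase was 52966 and 44776 FPKM in WT liver, 55067 and 29816 FPKM without GCN2 and 47372 and 22169 FPKM without ATF4. These sums do not all cover the same genes. After ASNase the eligible markers had a median log2 difference of −0.22 in WT liver, −0.74 without GCN2 and −1.18 without ATF4, against −0.01, 0.02 and 0.08 over all eligible genes, and 1 marker, G6pc, was called, in Atf4-/- livers. Lower values after ASNase were found for 10 of 13 eligible markers in Gcn2-/- and 10 of 12 in Atf4-/- livers. Hnf4a, the central transcription factor of hepatocyte identity, was at 149 and 145 FPKM in Gcn2-/- livers given PBS and ASNase. In Atf4-/- livers it went against most of its list, at 165 and 213 FPKM. The summed level of 15 skeletal muscle genes was 1061 to 1497 FPKM in the WT groups, 10.8 to 12.9 FPKM in the Gcn2-/- groups, where 1 or 2 of them were listed at 0, and 88.7 to 197 FPKM in the Atf4-/- groups. The 9 pancreatic acinar genes summed to 321 FPKM in Atf4-/- ASNase livers, 59.6 in WT ASNase livers and at most 15.9 in the other groups. In the neutrophil list the median was at most 0.297 FPKM in every group, and its summed level was 9991 FPKM in Gcn2-/- and 8698 FPKM in Atf4-/- ASNase livers, nearly all of it from Lcn2, which hepatocytes make in the acute phase response. Summed levels ranged from 92.7 to 223 FPKM for 7 macrophage markers, from 599 to 1345 FPKM for 10 adipocyte markers and from 3.58 to 121 FPKM for 6 brown adipocyte markers. For 14 genes that differ between male and female liver the sum was between 479 and 2839 FPKM, lowest in Atf4-/- ASNase livers. The part of sex or of other cell types in the results was not tested, and in bulk tissue fewer hepatocytes and less RNA per hepatocyte cannot be told apart. Of the deleted genes, Atf4 was at 32.3 and 29.3 FPKM in Atf4-/- livers and between 50.4 and 68.1 in the other groups. Eif2ak4, which encodes GCN2, was between 2.19 and 3.14 FPKM in all 6 groups and did not set the Gcn2-/- groups apart at gene level. The study reported from read density plots that Gcn2-/- mice lacked an exon of this gene, which a value per gene does not resolve.

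In WT livers ASNase left the pathway near its PBS level. None of the 38 eligible members was called, where 0.881% of all eligible genes were, and their median log2 difference was −0.06. The extremes were −0.46 for Fabp1 and 0.87 for Pdk4, so no member differed by more than 2-fold. Without the interval condition the count was also 0.

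In Gcn2-/- livers 33 of 36 eligible members had a lower value after ASNase and the median log2 difference was −0.97, against 0.02 for all 9218 eligible genes. Here 6 members fell, where 3.69% of all genes were called and 2.13% were called lower, and no member rose. The 6 were Acaa1b, Acot1, Acot3, Acsl5, Crot and Ehhadh, of which 4 are peroxisomal and none is mitochondrial. Acaa1b, Acot1 and Acot3 share sequence with close paralogs, and 3 called members were left without the members of such families. More than 2-fold lower values, whatever the intervals, were seen in 16 of the 36 members and in 7.77% of all genes.

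In Atf4-/- livers the fall was broader. Of 37 eligible members, 35 had a lower value after ASNase, with a median log2 difference of −1.66 against 0.08 for all 9485 eligible genes. Of these 18 fell and 1, Acot2, rose, where 7.37% of all genes were called and 4.63% were called lower. A difference of more than 2-fold downward was present in 30 of 37 members and in 12.8% of all genes. The summed hepatocyte markers, over those valid in each group, were also lowest in Atf4-/- livers given ASNase. The part of that shift in the members' values was not tested.

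**Figure D1:**
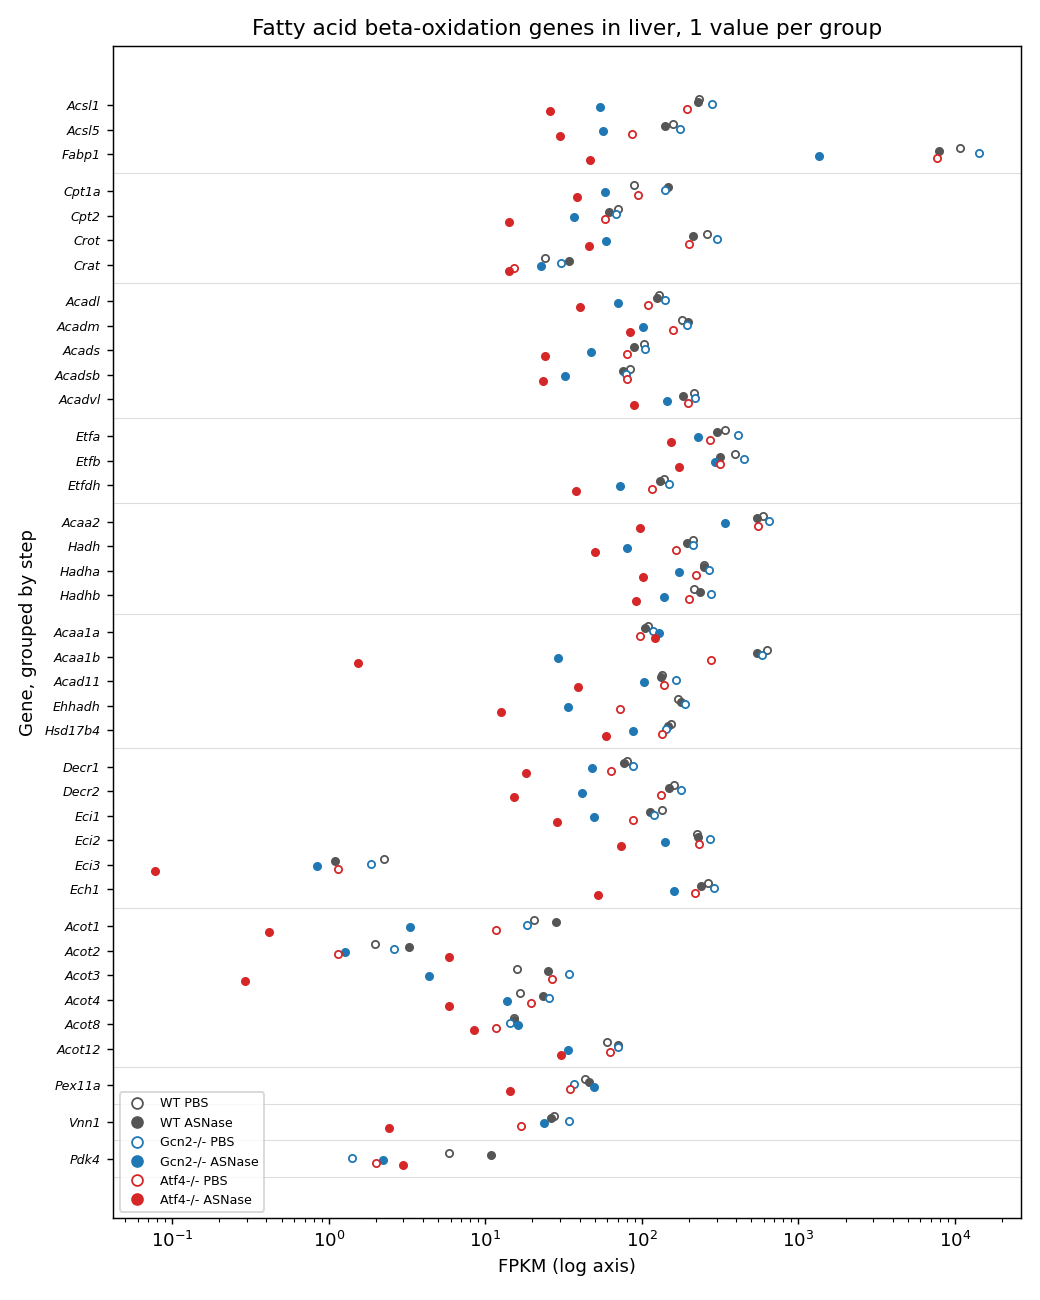
FPKM (log axis) of the 39 genes in the 6 groups, 1 point per group, with genes grouped by step. Open points are PBS and filled points ASNase, in grey for WT, blue for Gcn2-/- and red for Atf4-/-. The filled red points lie furthest left for most genes, down to 46.6 FPKM for Fabp1 and 1.55 FPKM for Acaa1b, while Acaa1a has its 6 points within 96.9 and 129 FPKM.

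**Figure D2:**
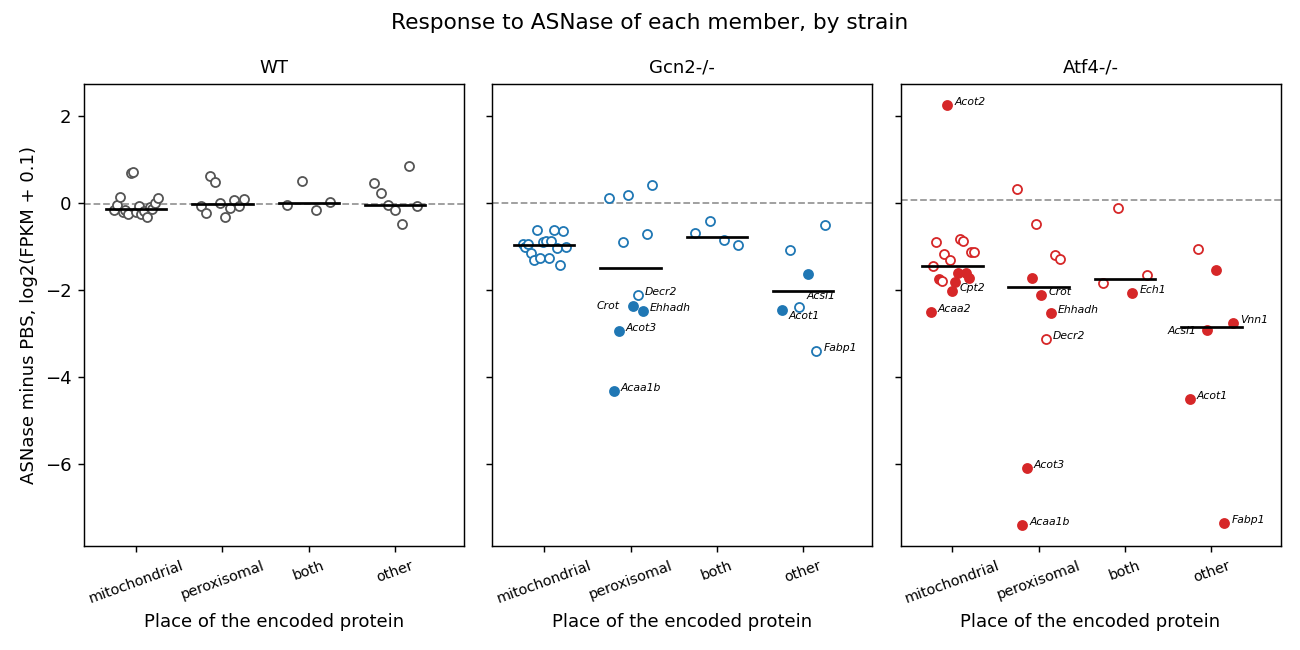
Difference of log2(FPKM + 0.1) between ASNase and PBS for each eligible gene, by place of the encoded protein, with a panel for each strain. Filled points met the rule for a call, black bars are medians of the members and the dashed line is the median of all eligible genes. The WT points stay between −0.46 and 0.87, whereas the peroxisomal points reach −4.31 (Acaa1b) in Gcn2-/- and −7.40 in Atf4-/- livers.

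Fatty acids enter these pathways bound to Fabp1, the liver fatty acid-binding protein, and are activated by the long-chain acyl-CoA synthetases Acsl1 and Acsl5. Fabp1 (ENSMUSG00000054422, chromosome 6 from 71199827 to 71205023 on GRCm38) was the most abundant member in 5 of the 6 groups and ranked 5 to 7 among all genes in WT livers and in both knockouts given PBS. Its level was 10830.5 FPKM (PBS) and 7854 FPKM (ASNase) in WT liver, 14306 and 1358 FPKM without GCN2, and 7629 and 46.6 FPKM without ATF4. The Atf4-/- ASNase value stood apart from the rest by its interval, 25.9 to 67.4 FPKM against 1684 to 13574 in Atf4-/- PBS, and at 0.611% of its PBS level the gene had dropped to rank 1503. In Gcn2-/- livers Fabp1 was at 9.49% of its PBS level (log2 difference −3.40), but the interval of 504 to 2211 FPKM overlapped that of Gcn2-/- PBS, 1678 to 26933, and it was not called. Fabp1 alone held between 1.15% and 1.75% of the summed FPKM of all genes in WT livers and under PBS, 0.194% in Gcn2-/- ASNase and 0.00577% in Atf4-/- ASNase livers.

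The stretch upstream of Fabp1 is shown because it was the sole member promoter with a match to the element that PPARA binds together with RXR. That element, a direct repeat spaced by 1 base (DR1), was searched on both strands as AGGNCANAGGNCA, which includes the consensus AGGTCANAGGTCA, in RefSeq windows of 300 bases (250 before to 50 after the start, GRCm38.p6). Windows were found for 34 of 39 members, and 0.381% of 32851 windows of all genes held a match. The match, in capitals, lies on the minus strand 67 to 55 bases before the RefSeq start. The stretch covers chr6:71199752-71199826 on the plus strand and ends at the base before the start annotated by GENCODE.
Fabp1: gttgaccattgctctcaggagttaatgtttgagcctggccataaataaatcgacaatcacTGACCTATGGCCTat
No member window held the consensus, which 0.0396% of all windows did, and none held TGATGNAAT, a form of the C/EBP-ATF response element that ATF4 binds, which 0.965% did. A match or its lack describes these letters in this window and nothing more.

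The synthetases were also lowest in Atf4-/- ASNase livers, with smaller differences than Fabp1. Acsl1 was at 233, 280.3 and 196 FPKM in WT, Gcn2-/- and Atf4-/- livers given PBS, and 229, 54.0 and 25.8 FPKM after ASNase. It fell in Atf4-/- livers, to 13.2% of PBS (log2 difference −2.92), and in Gcn2-/- livers its log2 difference of −2.37 came with intervals that overlapped. Acsl5 was at 158, 175 and 86.9 FPKM in WT, Gcn2-/- and Atf4-/- livers given PBS, and 141, 56.4 and 30.01 FPKM after ASNase. The interval of Acsl5 was separate in both knockouts, so that it fell in Gcn2-/- and Atf4-/- livers (log2 differences −1.63 and −1.53).

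The carnitine shuttle carries acyl groups into mitochondria through Cpt1a on the outer and Cpt2 on the inner membrane, while Crot and Crat move medium-chain and acetyl groups out of peroxisomes and between compartments. Cpt1a, the regulated entry step, was at 88.6 FPKM (PBS) and 147 FPKM (ASNase) in WT liver, 140.1 and 58.2 FPKM without GCN2, and 94.8 and 38.6 FPKM without ATF4. The WT value was higher after ASNase and the knockout values were lower, with log2 differences of 0.73, −1.26 and −1.29, none of which was called. Between strains under ASNase, Cpt1a was called lower in Atf4-/- than in WT livers (log2 difference −1.93), with separate intervals of 20.7 to 56.5 and 69.8 to 225 FPKM. Cpt2 was at 70.8, 68.3 and 57.7 FPKM in WT, Gcn2-/- and Atf4-/- livers given PBS, and 62.0, 36.7 and 14.1 FPKM after ASNase. It fell in Atf4-/- livers, to 24.4% of PBS (−2.02), whereas its Gcn2-/- difference of −0.90 was not called.

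Crot, the peroxisomal carnitine octanoyltransferase, was at 261, 302 and 199 FPKM in WT, Gcn2-/- and Atf4-/- livers given PBS, and 211, 58.8 and 45.8 FPKM after ASNase. It fell in both knockouts (log2 differences −2.36 in Gcn2-/- and −2.12 in Atf4-/- livers), the Gcn2-/- difference being the lower. Crat lay between 14.2 and 34.3 FPKM and was not called. Its lower bound was 0 in 4 groups. Among them were both knockout groups given PBS, so no fall after ASNase could be called in the knockouts.

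Inside mitochondria the acyl-CoA dehydrogenases act by chain length, from Acadvl (very long) over Acadl (long) and Acadm (medium) to Acads (short), and Acadsb serves short branched chains. Acadl was at 128, 141 and 109.6 FPKM in WT, Gcn2-/- and Atf4-/- livers given PBS, and 124, 70.6 and 40.2 FPKM after ASNase. Acadm was at 179, 194 and 157 FPKM in WT, Gcn2-/- and Atf4-/- livers given PBS, and 198, 101 and 84.4 FPKM after ASNase. Acads was at 103, 104 and 79.8 FPKM in WT, Gcn2-/- and Atf4-/- livers given PBS, and 89.2, 47.3 and 23.9 FPKM after ASNase. In all 3 the Atf4-/- ASNase value was the lowest of the 6 and the Gcn2-/- ASNase value the next, with log2 differences of −1.74 for Acads, which fell, −1.45 for Acadl and −0.89 for Acadm in Atf4-/- livers. Acadl had separate intervals there, and its difference stayed under the fold limit. Acadvl lay between 88.5 and 219 FPKM and Acadsb between 23.4 and 84.1 FPKM, and neither was called in any comparison. For Acadsb a fall could not be called, since its lower bound was 0 in every group. In Gcn2-/- livers the 5 dehydrogenases differed by −0.60 (Acadvl) to −1.31 (Acadsb), with a median of −0.999 and no call.

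Electrons from these dehydrogenases pass to the flavoprotein made of Etfa and Etfb and on to the respiratory chain through Etfdh. Etfdh was at 138, 148 and 115 FPKM in WT, Gcn2-/- and Atf4-/- livers given PBS, and 129.7, 72.1 and 38.0 FPKM after ASNase, and it fell in Atf4-/- livers (log2 difference −1.60). Etfa and Etfb, the 2 subunits of the flavoprotein, lay between 153 and 414 FPKM and between 173 and 450.3 FPKM. Their log2 differences in Atf4-/- livers were −0.83 and −0.86, among the smallest of the mitochondrial members, and neither was called. The level of Etfa was 0.780 to 0.952 of that of Etfb in every group. Of the 100-base words of the Etfb transcripts, 47.7% also occurred in the overlapping gene Gm45233, so its level is uncertain.

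The remaining mitochondrial steps are carried out on long chains by the trifunctional protein of Hadha and Hadhb, and on shorter chains by Hadh and the thiolase Acaa2. Acaa2 was at 598, 651 and 549 FPKM in WT, Gcn2-/- and Atf4-/- livers given PBS, and 541, 341 and 96.9 FPKM after ASNase, the most abundant mitochondrial member under PBS. It fell in Atf4-/- livers to 17.6% of PBS (log2 difference −2.50), the largest fall of a mitochondrial member, while in Gcn2-/- livers the difference was −0.93 with overlapping intervals. The difference of those responses, −1.57, exceeded its combined error of 1.51. Hadh was at 212, 213 and 165 FPKM in WT, Gcn2-/- and Atf4-/- livers given PBS, and 195, 80.1 and 50.2 FPKM after ASNase. Hadh fell in Atf4-/- livers (−1.71) and had the lowest mitochondrial difference in Gcn2-/- livers (−1.41, not called).

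Hadha and Hadhb are transcribed in opposite directions with 85 bases between the annotated genes on chromosome 5. Hadha was at 249.99, 269 and 220.4 FPKM in WT, Gcn2-/- and Atf4-/- livers given PBS, and 251, 173 and 102 FPKM after ASNase. Hadhb lay between 91.1 and 278 FPKM. The ratio of Hadha to Hadhb stayed between 0.967 and 1.24 in the 6 groups. The level of each was lowest in Atf4-/- ASNase livers, at 46.4% and 45.8% of PBS. Hadhb was not called, and a fall of Hadha could not be called because its lower bound was 0 in every group. Of the words of Hadhb, 46% also occurred in another gene, mainly Gm13910, which limits what its level says. The bases between both genes, chr5:30155163-30155247 on the plus strand, are shown because the pair of genes faces each other across them, and they hold no CCAAT box on either strand.
Hadha and Hadhb: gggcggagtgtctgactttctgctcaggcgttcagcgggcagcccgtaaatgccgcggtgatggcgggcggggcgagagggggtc

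The peroxisomal core held members far apart in response. Ehhadh, the L-bifunctional enzyme of the classical inducible route, was at 169 FPKM (PBS) and 179 FPKM (ASNase) in WT liver, 189.6 and 33.9 FPKM without GCN2, and 72.4 and 12.6 FPKM without ATF4. Hsd17b4, the D-bifunctional enzyme of branched-chain and bile acid precursors, was at 153 FPKM (PBS) and 146 FPKM (ASNase) in WT liver, 143 and 88.0 FPKM without GCN2, and 134 and 59.1 FPKM without ATF4. Ehhadh fell in both knockouts, at log2 differences of −2.48 (Gcn2-/-) and −2.51 (Atf4-/-), whereas Hsd17b4 differed by −0.70 and −1.18 and was not called. The ratio of Ehhadh to Hsd17b4 under PBS and ASNase was accordingly 1.102 and 1.22 in WT liver, 1.33 and 0.385 without GCN2 and 0.540 and 0.214 without ATF4. Ehhadh was also at 42.9% of the WT level in Atf4-/- livers given PBS (log2 difference −1.22), with overlapping intervals.

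The thiolases Acaa1a and Acaa1b, neighbouring paralogs on chromosome 9 that carry out the last step, gave the sharpest contrast. Acaa1b (ENSMUSG00000010651, chromosome 9 from 119148023 to 119157093) was at 627 FPKM (PBS) and 541 FPKM (ASNase) in WT liver, 584 and 29.3 FPKM without GCN2, and 277 and 1.55 FPKM without ATF4. Its interval was 14.8 to 43.8 FPKM in Gcn2-/- ASNase and 0.333 to 2.76 FPKM in Atf4-/- ASNase livers, against 239 to 929 and 123 to 431 under PBS. Acaa1b therefore fell to 5.02% and 0.558% of its PBS level (log2 differences −4.31 and −7.40), the lowest difference of any member in both strains. Acaa1a (ENSMUSG00000036138, chromosome 9 from 119339676 to 119350299), which was chosen for full description after its values were seen, was at 109 FPKM (PBS) and 105 FPKM (ASNase) in WT liver, 117 and 129 FPKM without GCN2, and 96.9 and 122 FPKM without ATF4. No group of Acaa1a stood apart, and its differences after ASNase were −0.06, 0.13 and 0.33. The ratio of Acaa1b to Acaa1a under PBS and ASNase was 5.73 and 5.16 in WT liver, 4.98 and 0.228 without GCN2 and 2.86 and 0.0127 without ATF4. Their sum was 701 and 158 FPKM without GCN2 and 374 and 123 FPKM without ATF4. Of the 100-base words of Acaa1a, 15.7% also occurred in Acaa1b, and 22.6% of those of Acaa1b in Acaa1a, so that reads in the shared part could be split between them. The effect of such a split on either level or on their sum was not tested.

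The stretches before the RefSeq starts of both thiolase genes are shown because the paralogs parted ways in the same livers. Capitals mark ATTGG, the CCAAT box read on the other strand. The box (CCAAT, either strand) was held by the windows of 19 of 34 members, 55.9%, and of 41.1% of all genes. The stretch of Acaa1a is chr9:119341174-119341293 on the plus strand and that of Acaa1b is chr9:119157094-119157213 on the minus strand, both written 5′ to 3′ up to the base before the RefSeq start. GENCODE places the start of Acaa1a at 119339676, so its stretch lies inside the gene as annotated there.
Acaa1a: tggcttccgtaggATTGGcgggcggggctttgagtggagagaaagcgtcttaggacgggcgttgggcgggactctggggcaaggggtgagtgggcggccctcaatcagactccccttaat
Acaa1b: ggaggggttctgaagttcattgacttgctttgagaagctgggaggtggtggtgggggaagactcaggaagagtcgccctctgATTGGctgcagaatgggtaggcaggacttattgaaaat
The box begins 107 bases before the RefSeq start in Acaa1a and 38 bases before it in Acaa1b.

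**Figure D3:**
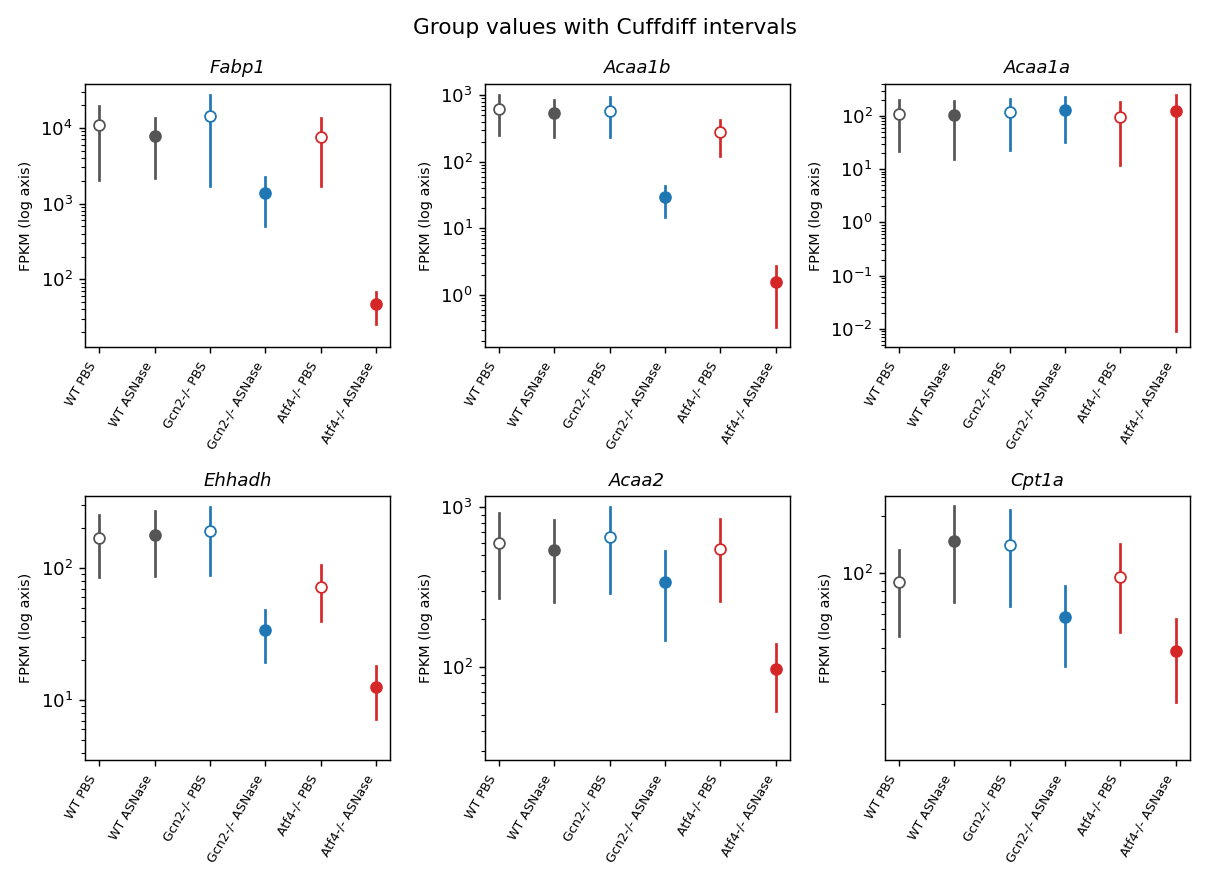
FPKM (log axes that differ between panels) of Fabp1, Acaa1b, Acaa1a, Ehhadh, Acaa2 and Cpt1a in the 6 groups, with bars for the Cuffdiff interval of each group value. Open points are PBS and filled points ASNase. The interval of Acaa1b in Atf4-/- ASNase livers ends at 2.76 FPKM, below the 123 FPKM at which that of Atf4-/- PBS begins, while the intervals of Acaa1a overlap throughout.

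Acad11, an acyl-CoA dehydrogenase family member assigned to both organelles, lay between 38.9 and 165 FPKM. Its log2 difference was −0.69 in Gcn2-/- and −1.82 in Atf4-/- livers, and it was not called.

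Unsaturated chains need auxiliary reductases and isomerases, of which Decr1 and Eci1 are mitochondrial, Decr2 and Eci3 peroxisomal, and Eci2 and Ech1 found in both. Decr1 was at 80.4, 87.4 and 63.9 FPKM in WT, Gcn2-/- and Atf4-/- livers given PBS, and 76.997, 48.2 and 18.3 FPKM after ASNase. Decr2, its peroxisomal counterpart, was at 159.6, 179 and 133 FPKM in WT, Gcn2-/- and Atf4-/- livers given PBS, and 149, 41.7 and 15.3 FPKM after ASNase. The reductases differed in the size of their response, with log2 differences of −0.86 (Gcn2-/-) and −1.80 (Atf4-/-) for Decr1 and −2.10 and −3.11 for Decr2. Decr1 fell in Atf4-/- livers, whereas Decr2 was not called because its interval began at 0 in every group (0 to 33.2 FPKM in Atf4-/- ASNase livers).

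Among the isomerases, Eci1 was at 134, 119 and 87.5 FPKM in WT, Gcn2-/- and Atf4-/- livers given PBS, and 113, 49.8 and 28.9 FPKM after ASNase. Ech1, which rearranges dienoyl-CoA, was at 266, 289.6 and 218 FPKM in WT, Gcn2-/- and Atf4-/- livers given PBS, and 240.3, 161 and 52.6 FPKM after ASNase. Both fell in Atf4-/- livers, with log2 differences of −1.59 for Eci1 and −2.05 for Ech1. Eci2 lay between 73.8 and 272 FPKM and differed by −1.66 in Atf4-/- livers without a call. Eci3 was low throughout, at 2.25, 1.87 and 1.15 FPKM in WT, Gcn2-/- and Atf4-/- livers given PBS, and 1.096, 0.846 and 0.0772 FPKM after ASNase, and was not eligible.

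Acyl-CoA thioesterases release free fatty acids and coenzyme A, and Acot1 (cytosolic), Acot2 (mitochondrial), Acot3 and Acot4 (peroxisomal) form a paralog cluster on chromosome 12. In WT livers their values were higher after ASNase, by 0.47 to 0.71 on the log2 scale, with no call. Acot1 was at 20.5 FPKM (PBS) and 28.5 FPKM (ASNase) in WT liver, 18.6 and 3.30 FPKM without GCN2, and 11.6 and 0.416 FPKM without ATF4. Acot3 was at 16.0 FPKM (PBS) and 25.0 FPKM (ASNase) in WT liver, 34.2 and 4.38 FPKM without GCN2, and 26.5 and 0.291 FPKM without ATF4. Both fell in each knockout, with log2 differences in Gcn2-/- and Atf4-/- livers of −2.46 and −4.51 for Acot1 and −2.94 and −6.09 for Acot3, and ended under 0.5 FPKM in Atf4-/- ASNase livers. Acot4, which acts on dicarboxylic acids, was at 16.7 FPKM (PBS) and 23.5 FPKM (ASNase) in WT liver, 25.6 and 13.8 FPKM without GCN2, and 19.5 and 5.84 FPKM without ATF4, and it fell in Atf4-/- livers (−1.72) and was not called in Gcn2-/- livers (−0.89).

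Acot2 moved the other way and was the sole member called higher in any comparison. Its level was 1.97 FPKM (PBS) and 3.27 FPKM (ASNase) in WT liver, 2.61 and 1.27 FPKM without GCN2, and 1.14 and 5.90 FPKM without ATF4. It was under 3 FPKM in both Gcn2-/- groups and so not eligible there. In Atf4-/- livers it rose by 2.27 on the log2 scale, with intervals of 0.376 to 1.91 under PBS and 2.76 to 9.03 FPKM after ASNase. The ratio of Acot1 to Acot2 lay between 7.13 and 10.4 under PBS and in WT ASNase livers, and was 2.59 in Gcn2-/- and 0.0705 in Atf4-/- ASNase livers. These paralogs share sequence, with 16.3% of the words of Acot1 found in Acot2 and 17.1% of those of Acot2 found in Acot1, so their levels are uncertain where 1 of them is much higher. Acot8 and Acot12, which lie elsewhere in the genome, were between 8.46 and 16.2 FPKM and between 30.5 and 70.8 FPKM, with no call.

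The stretches upstream of Acot1 and Acot2, which lie on the plus strand, are shown because these neighbours ended in opposite directions in Atf4-/- livers. That of Acot1 is chr12:84009382-84009489 and that of Acot2 is chr12:83987741-83987860, each written up to the base before the GENCODE start, with CCAAT in capitals.
Acot1: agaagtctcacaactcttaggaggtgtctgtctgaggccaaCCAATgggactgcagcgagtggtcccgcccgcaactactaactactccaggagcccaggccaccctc
Acot2: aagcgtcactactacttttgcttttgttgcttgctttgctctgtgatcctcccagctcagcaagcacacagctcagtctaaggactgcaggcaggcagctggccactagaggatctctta
In these stretches the box was present in Acot1 and not in Acot2, although the longer window of Acot2 held it.

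**Figure D4:**
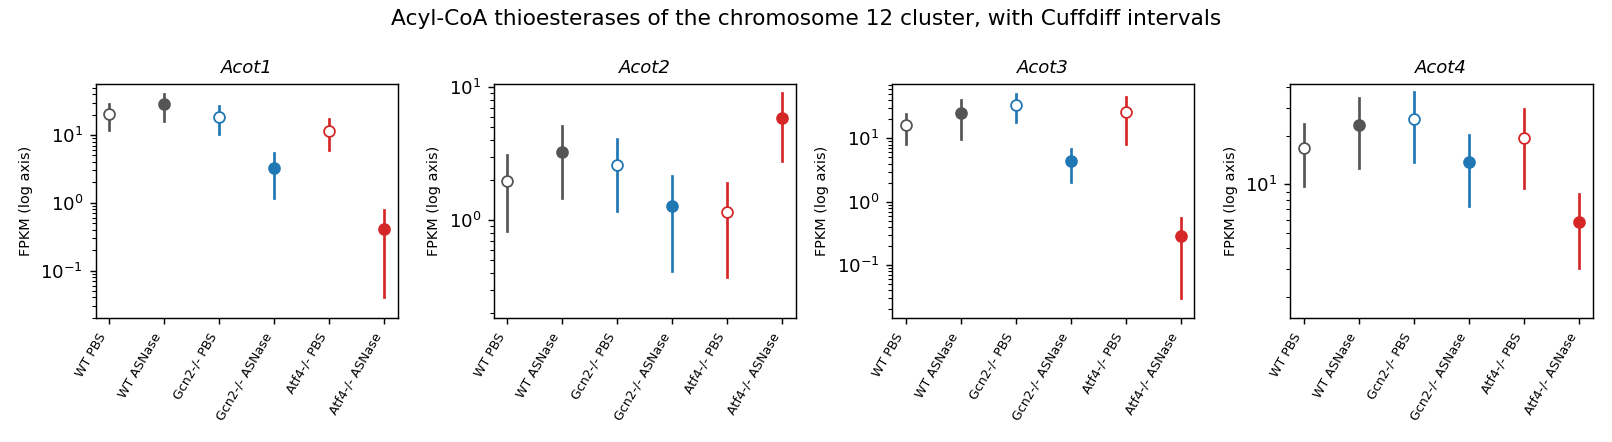
FPKM (log axes that differ between panels) of Acot1, Acot2, Acot3 and Acot4 in the 6 groups with the Cuffdiff interval of each group value as a bar, and with PBS open and ASNase filled. In Atf4-/- ASNase livers Acot1 (0.416 FPKM) and Acot3 (0.291 FPKM) are at their lowest, whereas Acot2 (5.90 FPKM) is at its highest.

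Of the members that act around the pathway, Vnn1, a pantetheinase that yields the coenzyme A precursor pantothenate, was at 27.6 FPKM (PBS) and 26.3 FPKM (ASNase) in WT liver, 34.0 and 23.9 FPKM without GCN2, and 16.9 and 2.43 FPKM without ATF4. It fell in Atf4-/- livers, to 14.4% of PBS (log2 difference −2.75), and was not called in Gcn2-/- livers (−0.51). The responses of the knockouts differed by −2.24, over the combined error of 1.41. Pex11a, which promotes peroxisome division, lay between 14.3 and 49.2 FPKM, and its difference was 0.41 in Gcn2-/- and −1.27 in Atf4-/- livers, with no call.

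Pdk4, the kinase that inhibits pyruvate dehydrogenase when fat is the fuel, was at 5.88 FPKM (PBS) and 10.8 FPKM (ASNase) in WT liver, 1.40 and 2.22 FPKM without GCN2, and 1.99 and 2.98 FPKM without ATF4. Both WT values were above all knockout values, and after ASNase Pdk4 was higher in each strain by 0.56 to 0.87 on the log2 scale, with no call in WT livers and under 3 FPKM in the knockouts. Against WT it was called lower in Gcn2-/- livers, with log2 differences of −1.99 under PBS and −2.23 after ASNase. The differences between Atf4-/- and WT livers, −1.52 and −1.82, came with overlapping intervals. Pdk4 is abundant in muscle, and the 15 skeletal muscle genes moved with it, at a median under PBS and ASNase of 71.6 and 84.6 FPKM in WT liver, 0.0375 and 0.123 FPKM without GCN2 and 6.65 and 10.6 FPKM without ATF4, and the part of muscle RNA in its level was not tested.

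When mitochondrial and peroxisomal members were set side by side, the medians were close in WT livers, −0.12 and −0.03 on the log2 scale. After ASNase the peroxisomal median was lower than the mitochondrial one in both knockouts, −1.49 against −0.96 in Gcn2-/- and −1.92 against −1.45 in Atf4-/- livers. The gaps were −0.53 and −0.48, with no test of the difference between the lists. The ranges within the lists differed as well. In Gcn2-/- livers the 16 eligible mitochondrial members lay between −1.41 and −0.60 and none was called, where 2.13% of all genes were called lower. The 10 eligible peroxisomal members ran from −4.31 (Acaa1b) to 0.41 (Pex11a) and 4 fell. At that background a count of 0 in 16 is no result about the mitochondrial members. In Atf4-/- livers, where 4.63% of all genes were called lower, 7 of 17 mitochondrial members fell and 1 rose, and 5 of 10 peroxisomal members fell, with a range from −7.40 (Acaa1b) to 0.33 (Acaa1a). The order of the lists depended on which genes were counted. With the 4 genes of both organelles added to it, the peroxisomal median in Gcn2-/- livers was −0.87. With thioesterases, Crot and Pex11a left out it was −2.10, the value of the auxiliary reductase Decr2, which was not called. The peroxisomal core with Acad11 had a median of −0.70 there. Mitochondrial dehydrogenases, at −0.999, and the steps from hydration to thiolysis, at −0.96, were lower. In Atf4-/- livers the core median was the lowest of these, −1.82 against −1.45 and −1.42.

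Summed levels gave a similar picture, which rested in large part on Acaa1b. The mitochondrial members under PBS and ASNase summed to 3229 and 3039.7 FPKM in WT liver, 3578 and 1917 FPKM without GCN2 and 2766 and 1071 FPKM without ATF4. The peroxisomal members summed to 1573 and 1442 FPKM, 1627 and 465 FPKM, and 1006 and 285 FPKM in the same order. After ASNase the mitochondrial sum was thus 53.6% of PBS in Gcn2-/- and 38.7% in Atf4-/- livers, and the peroxisomal sum 28.6% and 28.3%. Without Acaa1b the peroxisomal sum was 41.8% and 38.9% of PBS. In Atf4-/- livers that was close to the full mitochondrial share of 38.7%. Without Acaa2, the most abundant mitochondrial member under PBS, the mitochondrial sum was 53.8% of PBS in Gcn2-/- and 43.9% in Atf4-/- livers. With both genes left out, the peroxisomal share was the lower in both knockouts. The ratio of the peroxisomal to the mitochondrial sum was 0.487 in WT PBS and 0.242 in Gcn2-/- ASNase livers, and 0.293 and 0.227 when Acaa1b was left out.

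**Figure D5:**
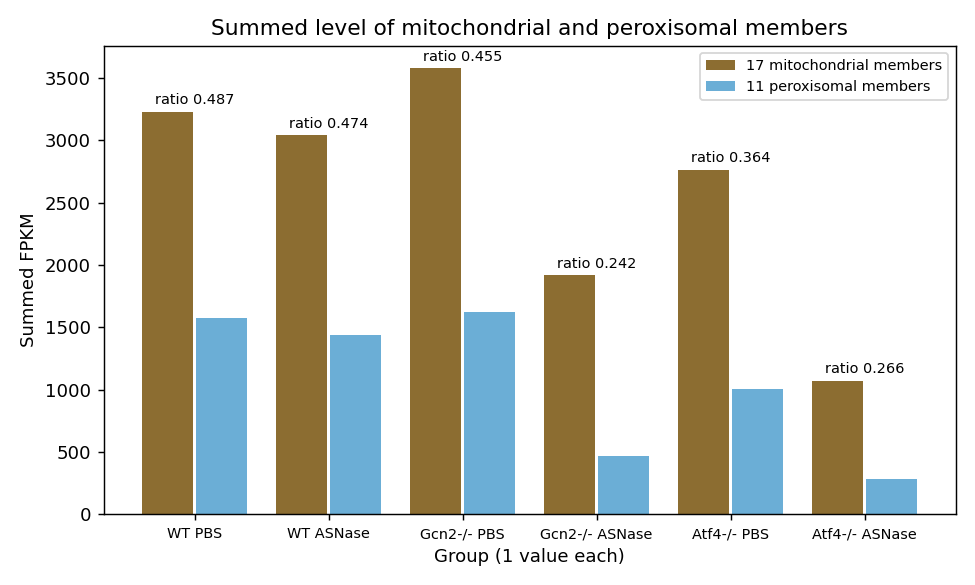
Summed FPKM of the 17 mitochondrial and the 11 peroxisomal members in each of the 6 groups (1 value per group, bars from 0), with the peroxisomal to mitochondrial ratio above each pair. Under PBS and ASNase the ratio is 0.487 and 0.474 in WT liver, 0.455 and 0.242 without GCN2 and 0.364 and 0.266 without ATF4.

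Under PBS few differences between the strains were called. Pdk4 was the 1 member called in Gcn2-/- against WT livers under PBS, where 1.04% of all genes were called and 0.65% called lower, and no member in Atf4-/- against WT livers, where 1.12% were. In Atf4-/- livers 31 of 37 eligible members were nonetheless below WT, with a median of −0.28 against 0.00 for all genes. The lowest after Pdk4 were Ehhadh (−1.22), Acaa1b (−1.18), Acsl5 (−0.87) and Acot1 (−0.81), of which each was among the members that fell after ASNase in this strain. In Gcn2-/- livers 28 of 37 members were above WT, with a median of 0.12 against 0.06 for all genes, and Acot3 was highest at 1.09. Both basal comparisons use the same WT PBS value, so their differences are not independent.

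After ASNase more members differed between the strains. In Gcn2-/- against WT livers 6 of 38 eligible members were called, all lower, where 4.41% of all genes were called and 2.59% called lower. They were Acaa1b (−4.20), Acot1 (−3.07), Acot3 (−2.49), Ehhadh (−2.40), Pdk4 and Crot (−1.84), of which 3 remain without the members of paralog families. In Atf4-/- against WT livers 20 of 38 were called, all lower, where 8.25% of all genes were called and 5.66% called lower, with a median of −1.86. The lowest were Acaa1b (−8.36), Fabp1 (−7.39), Acot3 (−6.00) and Acot1 (−5.79). Both comparisons share the WT ASNase values. The knockouts were compared with each other under ASNase after the data had been seen, and 7 members were lower and 1, Acot2, higher in Atf4-/- than in Gcn2-/- livers, where 3.19% of all genes were called and 2.29% called lower. The 7 were Fabp1 (−4.86), Acaa1b (−4.16), Acot3 (−3.52), Vnn1 (−3.24), Acot1 (−2.72), Acaa2 (−1.81) and Ech1 (−1.62), and the count of 8 became 4 without the members of paralog families.

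Responses were also compared between strains, a response being the ASNase minus PBS log2 difference, and 2 responses were said to differ when they were more than 1.5 apart and further apart than their combined error (the errors of all 4 values added in quadrature). The Gcn2-/- response lay below the WT response by this rule in 8 of 36 eligible members, where 4.55% of all genes differed and 2.72% were below. They were Acaa1b (−4.10), Acot3 (−3.57), Fabp1 (−2.93), Acot1 (−2.93), Ehhadh (−2.56), Acsl1 (−2.35), Crot (−2.05) and Cpt1a (−1.996). The Atf4-/- response lay below the WT response in 18 of 37, where 7.16% of all genes differed and 5.01% were below, led by Acaa1b (−7.18), Fabp1 (−6.89) and Acot3 (−6.72). Between the knockouts, the Atf4-/- response was the lower in 6 of 36, namely Fabp1 (−3.95), Acot3 (−3.15), Acaa1b (−3.08), Vnn1, Acot1 (−2.05) and Acaa2, where 4.08% of all genes differed and 2.72% were below. No eligible member's response differed in the opposite direction by this rule in these comparisons, which share the WT or knockout values with each other. Acot2, which was not eligible in Gcn2-/- livers, had a higher response in Atf4-/- than in Gcn2-/- livers, by 3.25 against a combined error of 1.76.

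Counted without any limit, 29 of 39 members had responses in the order Atf4-/- below Gcn2-/- below WT, against 21.5% of 9815 genes with a level over 3 FPKM in at least 1 group. Of the mitochondrial members 14 of 17 followed it and of the peroxisomal members 7 of 11. Eci3, which was never over 3 FPKM and so would not be among the 9815 genes, is counted in the 29 and in the 7. The exceptions were Acaa1a, Acadm, Acot2, Acot8, Acot12, Acsl5, Crat, Crot, Etfa and Pex11a.

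Other genes of the pathway were described from a list of 72 names, of which 70 were in the table. After ASNase none of 62 eligible genes was called in WT livers. Of 61 in Gcn2-/- livers 3 fell and 1 rose, where 3.69% of all genes were called and 2.13% called lower. These counts are too few to be read as a result about the list. In Atf4-/- livers 9 of 62 fell and 1 rose, where 7.37% of all genes were called and 4.63% called lower. The medians were −0.01, −0.36 and −0.74 in WT, Gcn2-/- and Atf4-/- livers. The 19 peroxisomal import and oxidation genes had the lowest medians of these lists, −1.05 and −1.67 in Gcn2-/- and Atf4-/- livers against −0.84 and −0.98 for the mitochondrial genes, while 13 peroxisome biogenesis genes had medians of −0.32 and −0.38 and no call. Nudt7, a peroxisomal coenzyme A diphosphatase, was at 449.7 FPKM (PBS) and 445 FPKM (ASNase) in WT liver, 571 and 58.8 FPKM without GCN2, and 482 and 49.9 FPKM without ATF4. Abcd2, a peroxisomal importer of very long-chain acyl-CoA, was at 13.5 FPKM (PBS) and 13.7 FPKM (ASNase) in WT liver, 27.8 and 2.90 FPKM without GCN2, and 5.92 and 0.695 FPKM without ATF4. Both fell in each knockout, with log2 differences of −3.28 and −3.27 for Nudt7 and −3.22 and −2.92 for Abcd2.

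Slc25a20, the carnitine-acylcarnitine translocase, was at 54.8 FPKM (PBS) and 51.0 FPKM (ASNase) in WT liver, 53.4 and 43.9 FPKM without GCN2, and 43.7 and 20.2 FPKM without ATF4, with no call. Acnat2, a peroxisomal acyl-CoA conjugating enzyme, was at 14.7 FPKM (PBS) and 7.60 FPKM (ASNase) in WT liver, 6.20 and 78.8 FPKM without GCN2, and 28.6 and 102 FPKM without ATF4, and it rose in Gcn2-/- livers by 3.65 on the log2 scale.

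Ppara itself was at 44.7 FPKM (PBS) and 63.7 FPKM (ASNase) in WT liver, 60.9 and 39.8 FPKM without GCN2, and 43.8 and 8.52 FPKM without ATF4. Its lowest value was in Atf4-/- ASNase livers, where the interval of 1.68 to 15.4 FPKM overlapped that of PBS and the log2 difference of −2.35 was not called. Ppargc1a, a coactivator of Ppara, stayed under 3 FPKM in every group. A list of 28 PPARA target genes, some of which are also in the lists above, had medians of 0.18 in WT, −0.66 in Gcn2-/- and −0.80 in Atf4-/- livers, against −0.01, 0.02 and 0.08 over all genes. Of the eligible targets 1 of 26 rose in WT livers, 4 of 24 fell and 1 rose in Gcn2-/- livers, and 7 of 24 fell and 1 rose in Atf4-/- livers, where 0.881%, 3.69% and 7.37% of all genes were called.

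The microsomal omega-hydroxylases of that list had their lowest values in Atf4-/- ASNase livers. Cyp4a14 was at 363, 449 and 164 FPKM in WT, Gcn2-/- and Atf4-/- livers given PBS, and 548, 139 and 24.1 FPKM after ASNase. Cyp4a10 was at 283, 257 and 107 FPKM in WT, Gcn2-/- and Atf4-/- livers given PBS, and 375, 70.3 and 7.73 FPKM after ASNase. Cyp4a32 was at 12.9, 21.6 and 15.6 FPKM in WT, Gcn2-/- and Atf4-/- livers given PBS, and 22.3, 6.52 and 2.09 FPKM after ASNase. All 3 fell in Atf4-/- livers (log2 differences −2.76, −3.78 and −2.84), and Cyp4a32 also fell in Gcn2-/- livers, although close paralogs make their levels uncertain. Aldh3a2, a fatty aldehyde dehydrogenase, and Retsat, a retinol saturase, also fell in Atf4-/- livers (−2.79 and −3.09). Fgf21, a secreted regulator of fat oxidation that is a target of both ATF4 and PPARA, was at 2.14 FPKM (PBS) and 29.3 FPKM (ASNase) in WT liver, 8.31 and 0.782 FPKM without GCN2, and 1.17 and 3.50 FPKM without ATF4. It rose in WT livers by 3.71 on the log2 scale, fell in Gcn2-/- livers (−3.25) and was not called in Atf4-/- livers, where its difference was just under the limit of 1.5.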

How the data were processed

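Poly-A RNA of liver was sequenced as single-end reads. Per the study's methods and the file headers, the authors aligned reads to mm10 with TopHat and deposited FPKM values that Cuffdiff made from 3 libraries of a group together, 1 value per group with interval bounds and a status. FPKM is scaled for depth and transcript length, so library totals and counting error are not seen in it, and reads shared by paralogs may be divided between them.

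From these values log2(FPKM + 0.1) differences were computed for all 37303 genes with pandas 2.3.3 and numpy 2.4.6 in Python 3.11.15. Calls needed an OK status in both groups, at least 1 value over 3 FPKM, a difference of more than 1.5 in size and separate intervals; 160 values without that status were left out. The limits follow the study's supplementary methods, with the interval condition in place of a q value. The rule was tested on simulated data with noise set from the interval widths. That setting could not check it against variation between replicate mice. Tests by library, planned for a table of single libraries, could not be made. The 7 planned comparisons were 3 of ASNase against PBS, 2 of strains under PBS and 2 under ASNase, and 1 was added after seeing the data. Gene positions came from GENCODE M21, and upstream sequences from RefSeq (GRCm38.p6). Shared sequence was counted as exact 100-base words between annotated transcripts of different genes.

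Members and lists were chosen with earlier results of these data known. Values in all 6 groups are given for members that were called in a planned comparison, for the 12 with the largest ASNase response, and for a set of key enzymes, and the rest by range. Of other pathway genes and PPARA targets, 6 were fixed by name, of which some are not reported here, and 8 were those called with the largest response. Alternatives were another pseudocount, FPKM limit, fold limit, interval condition, scaling and member list.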

Additional observations from a re-analysis of the deposited data

Results flagged for a closer look

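In 10 instances a member had an ASNase response above 0 in WT livers and below 0 in a knockout, with the responses more than 1.5 apart on the log2 scale and further apart than their combined error. These were 4 of 36 eligible members for Gcn2-/-, where 1.71% of all genes met the same conditions, and 6 of 37 for Atf4-/-, where 2.09% did. With 1 value per group the difference between the strains was not tested. The Gcn2-/- response minus the WT response, on the log2 scale, was −3.57 for Acot3, −2.93 for Acot1, −2.56 for Ehhadh and −1.996 for Cpt1a. The Atf4-/- response minus the WT response was −6.72 for Acot3, −4.98 for Acot1, −2.59 for Ehhadh, −2.21 for Acot4, −2.03 for Cpt1a and −1.68 for Eci2. The WT responses of Ehhadh (0.08) and Eci2 (0.03) were close to 0, whereas those of Cpt1a (0.73), Acot3 (0.64), Acot4 (0.49) and Acot1 (0.47) were larger. None of the WT responses was called. No sample could be set against others of its group, since the values are not given by library.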

How the results depend on the processing

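Differences were recomputed with other pseudocounts, FPKM and fold limits, interval conditions and scaling, with other lists of members, and without members that share sequence with paralogs. Single-member values were recomputed only with a pseudocount of 1, other scaling, a log2 fold limit of 1 and the combined interval. The combined interval asks for a difference larger than the half-widths of both intervals added in quadrature. Of the list medians, 108 of 112 moved by less than a limit set from the Cuffdiff errors of the single members. That limit is not a spread of the median itself. It was about as wide as the gaps between the peroxisomal and mitochondrial medians in the knockouts, −0.53 and −0.48. A shift that removed such a gap could thus pass, and the count does not show that the gaps are stable. Of the single-member values, 462 of 468 kept their side of the rule, while 6 gained a call and none lost it. The combined interval and the lower fold limit only loosen the rule, so no call could be lost under them. Most of the values had no call to lose under any setting, so the absence of losses says little about stability. Neither the count of medians nor that of single members covers a change of sign in a list median or in a value that was not called. Without members of paralog families the count of called members was 3 in place of 6 for ASNase against PBS in Gcn2-/- livers, 3 in place of 6 for Gcn2-/- against WT ASNase livers, and 4 in place of 8 for Atf4-/- against Gcn2-/- ASNase livers, since fewer members were counted. In Atf4-/- against WT livers under PBS 1 member in place of 0 was called both with the combined interval and with no interval condition. With genes of both organelles counted, the peroxisomal median was −0.87 in place of −1.49 for the Gcn2-/- response and −0.71 in place of −1.30 for Gcn2-/- against WT ASNase livers. With thioesterases, Crot and Pex11a left out it was −2.10 for the Gcn2-/- response and −3.27 in place of −2.10 for Atf4-/- against WT ASNase livers. Both of these medians were the value of the auxiliary reductase Decr2. Without the interval condition 6.58% and 12.2% of all genes were called in the Gcn2-/- and Atf4-/- responses, against 3.69% and 7.37% with it. No paired analysis was possible because each group has 1 value with no replicate number, and for the same reason no replicate could be left out. Depth cannot be read from FPKM, so the limit that counting sets is unknown.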
